A study of Mus musculus with 26 samples.

Results

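The question was whether the combined loss of the Tet3 low-complexity domain and of Dnmt3a in mouse oocytes changes each transcript by the sum of what the single losses do. It was read in a 2x2 of 4 genotypes, chosen as all batch 3 libraries of those genotypes: 8 of the 26 libraries of the series. GV (germinal vesicle) oocytes, which are fully grown and have not yet resumed meiosis, were collected in pools of 10, and polyadenylated RNA of each pool was sequenced. DKO oocytes were Dnmt3a f/f and Tet3 LCD f/f with Zp3-Cre, Dnmt3a KO oocytes were Dnmt3a f/f with Zp3-Cre, LCD KO oocytes were Tet3 LCD f/f with Zp3-Cre, and WT oocytes were Tet3 LCD f/f without Cre. Each group had 2 libraries: DKO 1 and 2, Dnmt3a KO 1 and 2, LCD KO 6 and 7, and WT 5 and 6. Zp3-Cre is active in growing oocytes, so the alleles are lost there and not in the surrounding follicle cells. The age of the animals was not given. The pools are labelled biological replicates, with no animal named for each, so p-values measure the spread between pools, which may be partly technical.

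WT was the only group without Cre, and it carried no floxed Dnmt3a. Any effect of Cre or of the line therefore enters the difference of LCD KO from WT and that of Dnmt3a KO from WT, and enters the departure from additivity once with the opposite sign. It cannot be told apart from the effect of the alleles there. The differences of DKO from Dnmt3a KO and of DKO from LCD KO are between groups that all carry Cre.

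DNMT3A is the methyltransferase that, with its partner DNMT3L, sets new DNA methylation in growing oocytes, mostly over transcribed gene bodies. TET3 is the main TET dioxygenase of oocytes and oxidizes 5-methylcytosine, a first step towards its removal. The low-complexity domain is a long stretch of TET3 that interrupts its catalytic domain. The enzymes have opposite actions on the same base, and the combined loss can be read against each single loss. Whether the loss of the domain changes oxidation by TET3 was not measured in these libraries.

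For each gene, the departure from additivity was DKO minus Dnmt3a KO minus LCD KO plus WT on the log2 scale, called the interaction here. A value of 0 means that the fold changes of the single losses multiply to give the double. A positive value means that the DKO level was higher than that product, and a negative value that it was lower. Levels are CPM (counts normalised for library size) scaled with TMM factors, and changes are log2 differences ± standard error from 1 edgeR quasi-likelihood fit of the 8 libraries over 10924 genes. A gene was called where its p, adjusted by Benjamini-Hochberg, was below 0.05. Adjusted p-values are from this edgeR fit wherever no other fit is named. Because each library is bulk RNA, fewer oocytes that express a gene and less of its RNA per oocyte cannot be told apart.

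Total counts were 3409979 and 2653218 in DKO, 2558479 and 4144414 in Dnmt3a KO, 2811815 and 3514236 in LCD KO, and 3030716 and 3292247 in WT. Between 13759 and 14533 genes had a count in each library. The oocyte genes Zp2, Zp3, Gdf9, Bmp15, Nlrp5 and Mos lay between 555 and 5987 CPM in all 8 libraries. The granulosa cell genes Amh and Foxl2 were at 0 in 7 of 8 libraries each. Inha, an inhibin subunit made by granulosa cells, was at 1.41 and 3.8 CPM in DKO, 0 and 2.18 in Dnmt3a KO, 9.20 and 14.5 in LCD KO, and 0 and 0.301 in WT. The sum of all 16 granulosa and cumulus markers was 397 to 490 CPM in DKO, 367 to 390 in Dnmt3a KO, 339 to 348 in LCD KO and 362 to 402 in WT. Without Serpine2, Cyp19a1, Cyp11a1 and Nr5a2, the sum of the other 12 was 8.46 and 13.3 CPM in DKO, 1.65 and 5.34 in Dnmt3a KO, 18 and 23.3 in LCD KO, and 1.42 and 3.01 in WT. Marker sums of theca and stroma were 4.51 and 9.89 CPM in DKO, 3.30 and 7.28 in Dnmt3a KO, 9.56 and 8.59 in LCD KO, and 4.26 and 4.21 in WT. Those of blood and immune cells were 0.902 to 5.31 CPM over the 8 libraries. The part of other cells in the results was not tested.

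The altered genes followed the labels. Tet3 was at 73.6 and 65.0 CPM in DKO, 263 and 424 in Dnmt3a KO, 60.9 and 83.2 in LCD KO, and 178 and 246 in WT. The groups that lost the domain did not overlap with the others, although counts per gene cannot tell a lower transcript from reads missing in a deleted part. Its count fell by 2.31 ± 0.28 between DKO and Dnmt3a KO (adjusted p = 0.000191) and by 1.55 ± 0.28 between LCD KO and WT (adjusted p = 0.0160). Dnmt3a was at 112 and 111 CPM in DKO, 149 and 121 in Dnmt3a KO, 463 and 410 in LCD KO, and 350 and 390 in WT. It fell by 1.97 ± 0.24 between DKO and LCD KO (adjusted p = 0.000124) and by 1.46 ± 0.23 between Dnmt3a KO and WT (adjusted p = 0.00358). The interaction was -0.75 ± 0.39 for Tet3 and -0.51 ± 0.33 for Dnmt3a, and neither was called (adjusted p = 1 for both).

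The interaction was called in 11 of 10924 genes, or 0.101%. In 9 of them (0.0824%) DKO was above the product of the single effects and in 2 (0.0183%) it was below. At an unadjusted p below 0.05, 325 genes (2.98%) departed from additivity, 141 upwards and 184 downwards. DESeq2, run on the same counts, called 16 genes, with all 11 among them. The count fell to 3 without DKO 1, 5 without DKO 2, 5 without Dnmt3a KO 1 and 4 without Dnmt3a KO 2. It was 9 to 12 when an LCD KO or WT library was left out. It was 25 with no filter on low counts and 6 in a fit of 22 libraries from 3 batches.

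The simple effects were larger in number. LCD KO against WT gave 68 calls (0.622%), 39 of them higher in LCD KO (0.357%) and 29 lower. DKO against Dnmt3a KO, which differ by the same domain, gave 141 (1.29%), with 75 higher in DKO (0.687%) and 66 lower. Dnmt3a KO against WT gave 51 (0.467%), with 25 higher in Dnmt3a KO (0.229%) and 26 lower. DKO against LCD KO gave 28 (0.256%), with 19 higher in DKO (0.174%) and 9 lower. DKO against WT gave 152 (1.39%), with 87 higher in DKO (0.796%) and 65 lower. These counts fell when a library of either compared group was left out, which leaves that group with 1 library. Whether the particular library or the lost replication lowered them was not tested. The count for LCD KO and WT was 26 without LCD KO 6, 38 without LCD KO 7, 13 without WT 5 and 23 without WT 6. That for DKO and Dnmt3a KO was 22 without DKO 1, 33 without DKO 2, 71 without Dnmt3a KO 1 and 37 without Dnmt3a KO 2. For Dnmt3a KO and WT it was 25 without Dnmt3a KO 1, 10 without Dnmt3a KO 2 and 32 without WT 6, and for DKO and LCD KO it was 18 without DKO 2. For DKO and WT it was 57 without DKO 1, 41 without DKO 2, 64 without WT 5 and 49 without WT 6.

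The 3 genes that mark the comparison were Mtfr2, Pxdn and Tmem47, and Slc4a3 had the smallest interaction p. Their promoters are shown because CG pairs are among the targets of DNMT3A and TET3. In oocytes, however, new methylation lies mostly over transcribed gene bodies, which are not shown. Each sequence is the RefSeq stretch of 250 bases before to 50 bases after the gene's start in GRCm38.p6, 5′ to 3′ on the gene's strand, with each CG in capitals. The deposited counts were made on mm9, so these coordinates are not those of the counts.
Mtfr2, GRCm38.p6 chr10:20347569-20347868, + strand: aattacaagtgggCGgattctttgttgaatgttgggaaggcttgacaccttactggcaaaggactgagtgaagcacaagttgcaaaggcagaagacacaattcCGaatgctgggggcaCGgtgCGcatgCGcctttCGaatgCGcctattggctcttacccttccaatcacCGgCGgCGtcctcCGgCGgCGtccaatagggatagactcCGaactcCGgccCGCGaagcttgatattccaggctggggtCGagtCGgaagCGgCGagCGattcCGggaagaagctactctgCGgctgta
Pxdn, GRCm38.p6 chr12:29937786-29938085, + strand: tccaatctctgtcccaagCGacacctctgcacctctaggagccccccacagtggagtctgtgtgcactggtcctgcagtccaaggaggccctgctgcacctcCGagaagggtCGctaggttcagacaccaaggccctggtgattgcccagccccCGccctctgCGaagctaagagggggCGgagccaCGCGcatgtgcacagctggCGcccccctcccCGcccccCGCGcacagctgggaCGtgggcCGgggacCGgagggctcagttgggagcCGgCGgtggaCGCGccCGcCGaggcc
Tmem47, GRCm38.p6 chrX:81070394-81070693, + strand: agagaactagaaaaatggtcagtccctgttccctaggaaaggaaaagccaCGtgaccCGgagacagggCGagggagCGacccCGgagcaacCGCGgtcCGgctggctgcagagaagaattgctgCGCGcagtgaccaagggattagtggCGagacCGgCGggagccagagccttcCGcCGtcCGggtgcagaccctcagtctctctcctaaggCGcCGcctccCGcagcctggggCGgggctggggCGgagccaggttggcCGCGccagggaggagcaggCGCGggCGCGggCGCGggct
Slc4a3, GRCm38.p6 chr1:75546212-75546511, + strand: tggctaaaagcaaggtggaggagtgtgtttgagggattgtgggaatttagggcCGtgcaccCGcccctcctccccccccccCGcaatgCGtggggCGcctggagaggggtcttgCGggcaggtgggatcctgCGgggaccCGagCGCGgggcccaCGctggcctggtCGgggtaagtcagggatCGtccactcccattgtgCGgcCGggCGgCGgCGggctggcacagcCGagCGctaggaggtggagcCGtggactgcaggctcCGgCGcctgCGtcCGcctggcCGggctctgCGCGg
The motif searched was CG, which reads the same on both strands. It occurred 24 times in the Mtfr2 promoter, 21 in Pxdn, 29 in Tmem47 and 28 in Slc4a3. Of all RefSeq promoters of this length, 20.0% had at least as many as Mtfr2, 25% as Pxdn, 12.7% as Tmem47 and 14.0% as Slc4a3. Of the promoters of tested genes the shares were 40.6% for Mtfr2, 50.8% for Pxdn, 25.3% for Tmem47 and 27.9% for Slc4a3. Of the 11 called genes, 8 had a promoter in the table, with a median of 22 CG pairs (14 to 37), against a median of 21.0 over the tested genes. At least 1 CG was present in 99.1% of the promoters of tested genes and in 94.2% of all promoters. These counts describe the sequence and not its methylation, which was not measured in these libraries.

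Mtfr2, which encodes a regulator of mitochondrial fission, was lowest without the Tet3 domain alone and highest without both. It was at 579 and 417 CPM in DKO, 269 and 215 in Dnmt3a KO, 23.0 and 37.6 in LCD KO, and 96.1 and 79.4 in WT. The 4 groups did not overlap. It fell by 1.52 ± 0.28 in LCD KO relative to WT (adjusted p = 0.0162) and rose by 1.46 ± 0.27 in Dnmt3a KO relative to WT (adjusted p = 0.0120). The single changes cancelled almost exactly on the log2 scale, with a sum of -0.06 and a predicted DKO level of 83.6 CPM. The DKO mean of 498 ± 115 CPM (SD, n = 2) was 5.95-fold above that prediction, with an interaction of 2.56 ± 0.39 (adjusted p = 0.00596). Between the groups that carry Cre, Mtfr2 rose by 4.03 ± 0.30 in DKO relative to LCD KO (adjusted p = 3.01e-07). It differed by 1.04 ± 0.27 between DKO and Dnmt3a KO (adjusted p = 0.0582). The domain's loss thus went with a lower Mtfr2 level where Dnmt3a was present, and the DKO level stood above Dnmt3a KO in both libraries. The interaction call was lost without DKO 1 (adjusted p = 0.103) and without Dnmt3a KO 2 (adjusted p = 0.0519).

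Pxdn, which encodes a peroxidase that crosslinks collagen IV, had no count in either Dnmt3a KO library and was detected in all others. It was at 17.8 and 9.89 CPM in DKO, 0 and 0 in Dnmt3a KO, 17.0 and 21.2 in LCD KO, and 12.4 and 10.2 in WT. The Dnmt3a KO libraries stood apart, and the DKO libraries spanned the WT range. With the Dnmt3a KO level set at its floor of 3 counts over the group, DKO was at least 30.2-fold higher than Dnmt3a KO, and Dnmt3a KO was at least 24.7-fold lower than WT. DKO was at least 17.9-fold above the product of the single effects (interaction adjusted p = 0.00944). DKO differed from LCD KO by -0.45 ± 0.40 (adjusted p = 0.999) and from WT by 0.31 ± 0.41 (adjusted p = 0.855). The interaction call was lost without DKO 1 (adjusted p = 0.10), without Dnmt3a KO 1 (adjusted p = 0.0686) and without Dnmt3a KO 2 (adjusted p = 0.246).

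Tmem47, the gene of a junctional membrane protein, did not pass the test. It was at 11 and 14.1 CPM in DKO, 26 and 41.7 in Dnmt3a KO, 4.95 and 3.76 in LCD KO, and 45.8 and 30.1 in WT. LCD KO was lowest, DKO was next, and Dnmt3a KO and WT overlapped. Tmem47 fell by 1.45 ± 0.35 in DKO relative to Dnmt3a KO (adjusted p = 0.0467) and by 3.12 ± 0.40 in LCD KO relative to WT (adjusted p = 0.000617). The interaction of 1.67 ± 0.53 had an unadjusted p of 0.00528 and an adjusted p of 0.995 in the 8 libraries. In a fit with a batch term of the 22 libraries that have one, it was 2.20 ± 0.42 (adjusted p = 0.0369), the only one of 15 settings in which it was called.

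**Figure D1:**
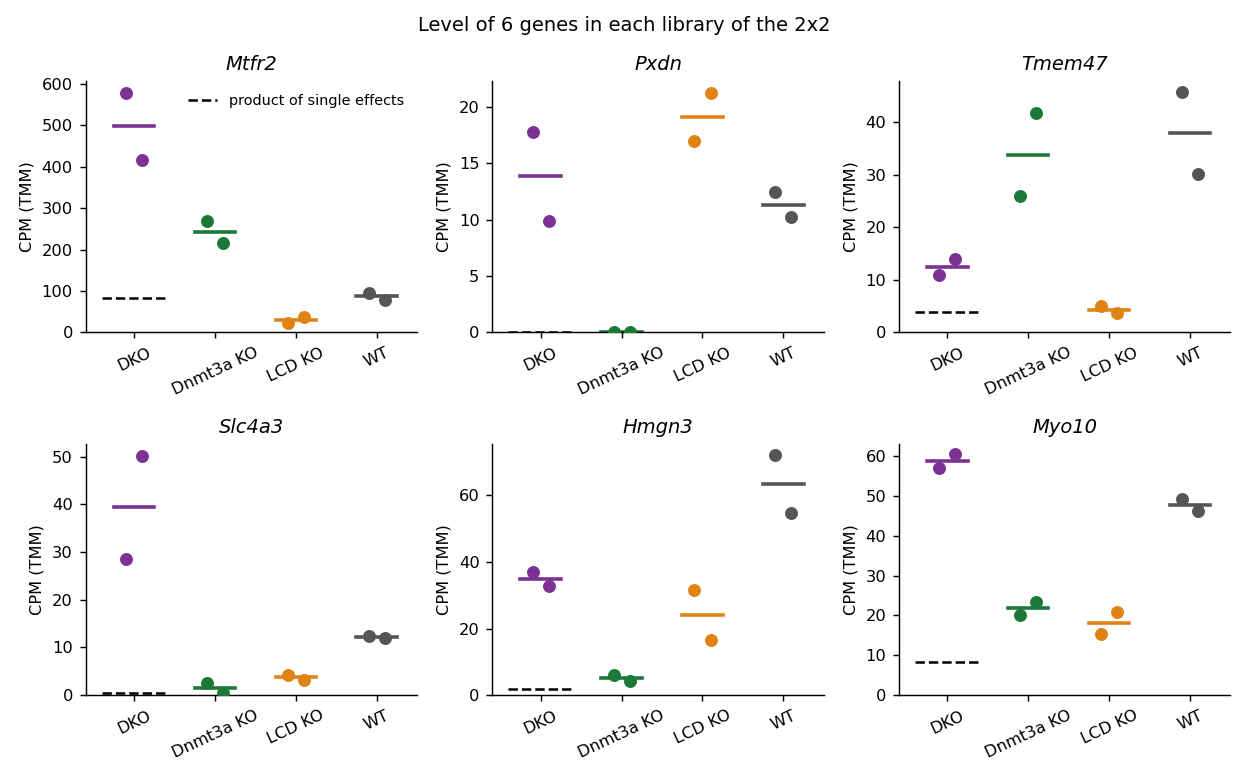
Level in CPM of 6 genes in each of the 8 libraries, with points for libraries, coloured bars for group means (n = 2) and a dashed line for the DKO level that the product of the single effects gives. For Mtfr2 both DKO points (579 and 417 CPM) lie above the line at 83.6 CPM, and for Pxdn the line is at 0 because both Dnmt3a KO libraries had no count.

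In 6 of the 9 genes with a positive interaction, both single losses had a lower fitted level than WT, and DKO was higher than their product. Against WT itself, the fitted DKO level was lower in Alyref2, Hmgn3 and Rwdd2a and higher in Slc4a3, Myo10 and Ccdc28a. WT enters both the single effects and the interaction, so this arrangement is in part built into the quantity. Slc4a3, which encodes an exchanger of chloride for bicarbonate, was at 28.5 and 50.2 CPM in DKO, 2.48 and 0.485 in Dnmt3a KO, 4.25 and 3.22 in LCD KO, and 12.4 and 12 in WT. Both DKO libraries were above all others, and both single losses were below WT. The product of the single effects was 0.452 CPM, against a DKO mean 87.0-fold higher, and the interaction was 6.62 ± 0.74 (adjusted p = 0.000251). That size rests on few counts in Dnmt3a KO, and the interaction was 7.95 without Dnmt3a KO 1 and 5.66 without Dnmt3a KO 2. Slc4a3 rose by 4.90 ± 0.55 relative to Dnmt3a KO (adjusted p = 8.61e-05), by 3.39 ± 0.47 relative to LCD KO (adjusted p = 0.000580) and by 1.68 ± 0.41 relative to WT (adjusted p = 0.0426) in DKO.

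Hmgn3, which encodes a nucleosome-binding protein, was at 36.9 and 32.7 CPM in DKO, 6.19 and 4.12 in Dnmt3a KO, 31.5 and 16.6 in LCD KO, and 72.0 and 54.7 in WT. Only Dnmt3a KO was called lower than WT among the single losses (-3.65 ± 0.38, adjusted p = 4.63e-05), and DKO lay 17.8-fold above the predicted 1.96 CPM. The interaction was 4.20 ± 0.51 (adjusted p = 0.000397). Myo10, which encodes an unconventional myosin of filopodia, was at 57.0 and 60.5 CPM in DKO, 20.2 and 23.3 in Dnmt3a KO, 15.2 and 20.9 in LCD KO, and 49.3 and 46.3 in WT. Every library of a single loss stood below every DKO and WT library. It rose by 1.42 ± 0.28 in DKO relative to Dnmt3a KO (adjusted p = 0.0137) and fell by 1.39 ± 0.29 in LCD KO relative to WT (adjusted p = 0.0276), so the change with the domain's loss had opposite signs with and without Dnmt3a. Its interaction was 2.82 ± 0.40 (adjusted p = 0.00362).

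Alyref2, which encodes a relative of an mRNA export adaptor, had 62.6 and 59.0 CPM in DKO, 27.7 and 17.5 in Dnmt3a KO, 25.1 and 56.6 in LCD KO, and 98.6 and 103 in WT. DKO lay above Dnmt3a KO and LCD KO and below WT, with an interaction of 2.74 ± 0.47 (adjusted p = 0.0194). Ccdc28a, a coiled-coil protein gene, had 57.0 and 60.5 CPM in DKO, 18.6 and 15.5 in Dnmt3a KO, 28.7 and 24.4 in LCD KO, and 29.1 and 36.4 in WT, with an interaction of 2.1 ± 0.41 (adjusted p = 0.0492). Rwdd2a, named for its RWD domain, had 57.5 and 63.9 CPM in DKO, 16.1 and 17.9 in Dnmt3a KO, 66.9 and 60.1 in LCD KO, and 70.9 and 65.8 in WT, with an interaction of 1.93 ± 0.37 (adjusted p = 0.0491). For Rwdd2a, Dnmt3a KO was the group that stood apart. Alyref2 lost its call without DKO 1 (adjusted p = 0.161), DKO 2 (adjusted p = 0.0827) and Dnmt3a KO 2 (adjusted p = 0.246). Ccdc28a and Rwdd2a lost theirs whichever of the 8 libraries was left out, with adjusted p-values of 0.0567 to 0.303 for Ccdc28a and 0.0947 to 0.290 for Rwdd2a. B3gnt7, which encodes an enzyme that adds N-acetylglucosamine to sugar chains, had 48.5 and 45.6 CPM in DKO, 32.6 and 20.1 in Dnmt3a KO, 4.95 and 1.88 in LCD KO, and 23.8 and 13.2 in WT. For B3gnt7, LCD KO stood apart in these 8 libraries, and the interaction was 3.33 ± 0.59 (adjusted p = 0.0222). It lost its call without DKO 1, DKO 2, Dnmt3a KO 1, Dnmt3a KO 2, LCD KO 7 and WT 5, with adjusted p-values of 0.0521 to 0.244.

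Me1, which encodes cytosolic malic enzyme, lies next to Rwdd2a on the opposite strand. It had 323 and 251 CPM in DKO, 891 and 1072 in Dnmt3a KO, 153 and 352 in LCD KO, and 203 and 301 in WT. Among these 8 libraries Dnmt3a KO was again the group that stood apart, with Me1 above the others there. WT alone varied widely in batches 1 and 2. Its libraries ran from 74.9 to 1035 CPM for Me1 (median 923) and from 21.0 to 66.4 CPM for Rwdd2a (median 23.2). Whether the separation of Dnmt3a KO exceeds such variation between pools was not tested. The interaction of Me1 was -1.77 ± 0.46 (adjusted p = 0.476). Among the genes with a called interaction, Alyref2, B3gnt7 and Hmgn3 each overlap a gene on the opposite strand in the GENCODE annotation of GRCm38. Reads of such pairs can be told apart only if they were counted by strand. Myo10 and Defa29 overlap genes on the same strand there, which counting by strand cannot separate.

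In both genes with a negative interaction, both single losses had a fitted level above WT and DKO was below their product. Defa29, an alpha-defensin gene of a multicopy family whose reads may be shared among copies, had 2.54 and 2.66 CPM in DKO, 16.9 and 21.8 in Dnmt3a KO, 4.95 and 11.5 in LCD KO, and 2.84 and 0.301 in WT. Its interaction was -5.35 ± 0.89 (adjusted p = 0.0132), and the call was lost without each DKO or Dnmt3a KO library (adjusted p = 0.0622 to 0.198). March11, which encodes a membrane-bound ubiquitin ligase, had 46.5 and 48.3 CPM in DKO, 180 and 127 in Dnmt3a KO, 158 and 98.2 in LCD KO, and 104 and 61.6 in WT. Its DKO level was below all other libraries, and its interaction was -2.32 ± 0.42 (adjusted p = 0.0318). The call of March11 was lost without DKO 1, DKO 2, Dnmt3a KO 1, LCD KO 6 and WT 6 (adjusted p = 0.0910 to 0.316).

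The next genes by p did not pass the test. Haus8, a gene of the augmin complex of the spindle, had an interaction of 1.79 ± 0.37 (adjusted p = 0.0924), and Rpsa, a ribosomal protein gene with many pseudogene copies, 1.87 ± 0.45 (adjusted p = 0.276). Tnfsf11, which encodes a ligand of the TNF family, had an interaction of -2.31 ± 0.48 (adjusted p = 0.0937). Gja1, a gap junction gene of granulosa cells, was at 0 and 0 CPM in DKO, 0.413 and 3.88 in Dnmt3a KO, 2.12 and 7.25 in LCD KO, and 0 and 0 in WT (interaction adjusted p = 0.0937). Its higher values in LCD KO stand beside those of Inha in the same libraries. Slc16a5, Plac1, Ggct, Mettl7a1, Ctsl and Pdgfrl had interactions between -3.64 and -1.33 with adjusted p-values between 0.183 and 0.689.

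**Figure D2:**
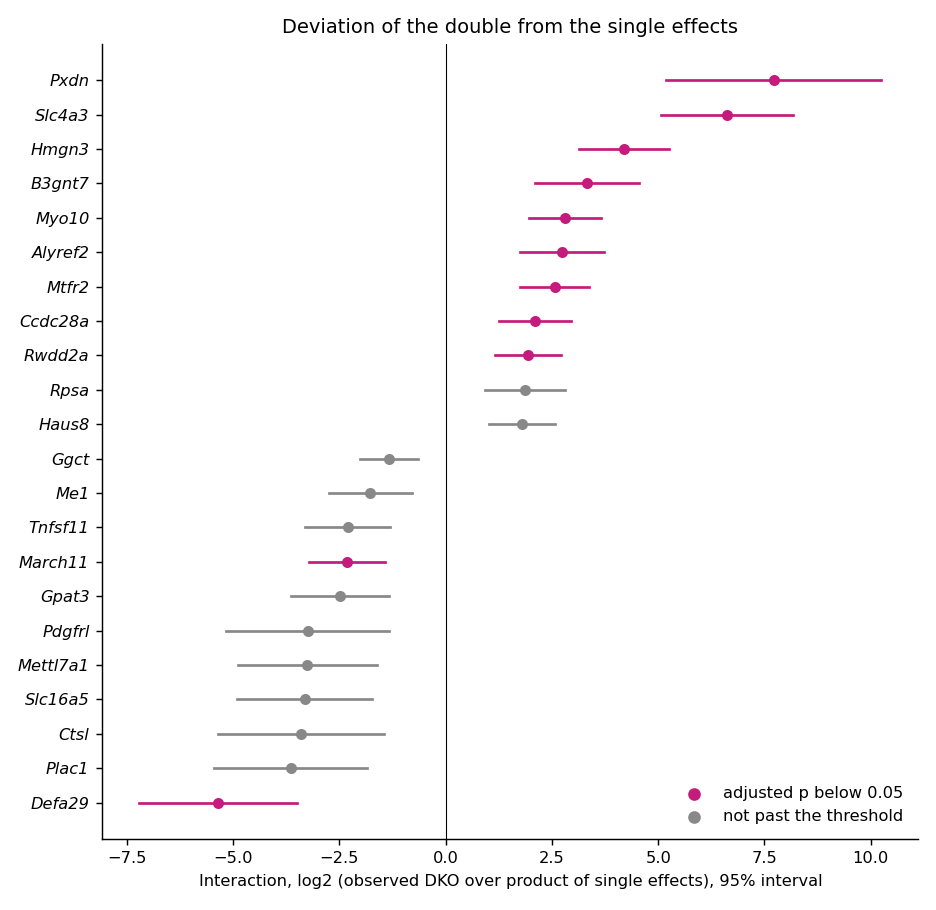
Interaction on the log2 scale with its 95% interval for the genes with a called interaction (magenta) and genes of the text that are next by p in each direction (grey), with Gja1 left out because DKO and WT were at 0. Slc4a3 lies at 6.62 and Defa29 at -5.35, and the position of Pxdn depends on the small count added in fitting because Dnmt3a KO was at 0.

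Of the 11 genes, 7 were called higher (0.687% of all genes) and 2 lower (0.604% of all genes) in DKO than in Dnmt3a KO, and 4 were called higher in DKO than in LCD KO (0.174% of all genes). Against WT, DKO was called higher in 2 (0.796% of all genes), Mtfr2 and Slc4a3, and not called in the other 9. The interaction that chose the 11 genes contains these differences, so the counts describe the genes and are in part built in. Slc4a3 and Myo10 were called in both differences between groups that all carry Cre, as higher in DKO.

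The change between LCD KO and WT was also measured in batches 1 and 2 (5 LCD KO and 4 WT libraries, fitted with a batch term), and there it had the same sign as in batch 3 for some of these genes and the opposite sign for others. Mtfr2 was at 34.3 to 131 CPM in LCD KO (median 43.6) and 123 to 212 CPM in WT (median 189), and fell by 1.73 ± 0.22 (adjusted p = 0.000137). Tmem47 fell by 4.04 ± 0.26 (adjusted p = 4.9e-08), and Pxdn differed by 0.09 ± 0.20 (adjusted p = 0.757). Slc4a3 was at 1.56 to 28.0 CPM in LCD KO (median 4.60) and 0.665 to 1.73 CPM in WT (median 1.12), and rose by 3.02 ± 0.44 (adjusted p = 0.000211), against a change of -1.72 ± 0.49 in batch 3. Alyref2 rose by 1.65 ± 0.47 (adjusted p = 0.0378), against -1.29 ± 0.32 in batch 3. Myo10 differed by 0.56 ± 0.39 (adjusted p = 0.319), Hmgn3 by -0.51 ± 0.82 (adjusted p = 0.693) and Ccdc28a by -0.26 ± 0.18 (adjusted p = 0.307). Rwdd2a differed by 0.61 ± 0.40 (adjusted p = 0.303), against -0.11 in batch 3. March11 differed by -0.84 ± 0.75 (adjusted p = 0.458), against 0.63 in batch 3. B3gnt7 differed by -0.66 ± 0.43 (adjusted p = 0.276), against -2.47 in batch 3. With all 22 libraries in 1 fit with a batch term, Mtfr2 (2.72 ± 0.35, adjusted p = 0.000203), Pxdn and Ccdc28a (2.06 ± 0.32, adjusted p = 0.00199) kept the interaction call. Slc4a3 (4.10 ± 1.37, adjusted p = 0.632), Hmgn3 (3.58 ± 1.09, adjusted p = 0.587) and Myo10 (1.45 ± 0.73, adjusted p = 0.746) did not. Nor did Alyref2 (0.68 ± 1.03, adjusted p = 0.918), B3gnt7, Rwdd2a, Defa29 and March11, so that 8 of the 11 lost the call (adjusted p = 0.370 to 0.918).

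Beside these genes, the effect of a loss measured with the other gene present was set against the effect measured without it. LCD KO minus WT and DKO minus Dnmt3a KO share no library. Across the 10924 genes their log2 changes had a Pearson's r of 0.481, and 0.588 over the 2303 genes that averaged at least 100 CPM. Dnmt3a KO minus WT and DKO minus LCD KO had an r of 0.312, and 0.414 over the same 2303 genes. These are descriptions across genes, which are not independent replicates, and all 8 libraries share the batch.

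**Figure D3:**
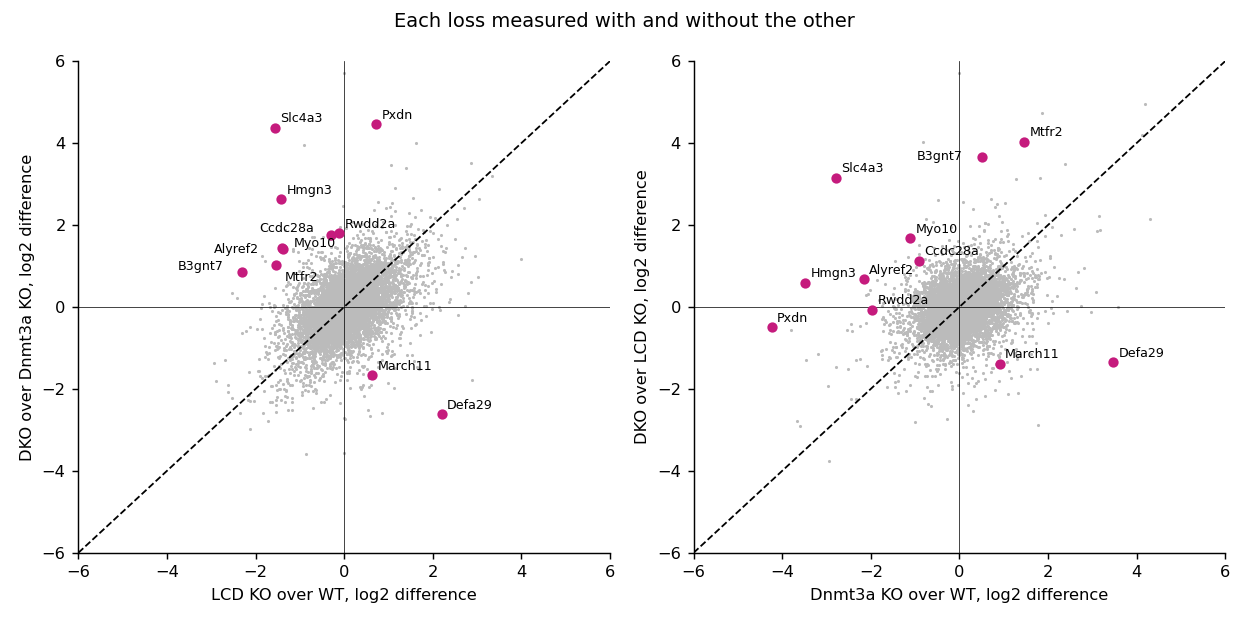
Each point is 1 of 10924 genes, with the log2 change of a loss when the other gene is present on the horizontal axis and absent on the vertical axis, for the Tet3 domain (left, DKO over Dnmt3a KO against LCD KO over WT) and Dnmt3a (right, DKO over LCD KO against Dnmt3a KO over WT). The 11 genes with a called interaction (magenta, named) lie off the dashed line of equal changes, and r is 0.481 on the left and 0.312 on the right.

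For the Tet3 domain, 27 genes other than Tet3 were called in both measurements, 26 in the same direction (16 higher and 10 lower) and Myo10 in opposite directions. For Dnmt3a, 9 genes other than Dnmt3a were called in both, 8 in the same direction (6 higher and 2 lower) and Slc4a3 in opposite directions. The interaction of the 26 genes had a median of -0.03 and ran from -0.52 to 1.67, the highest being Tmem47. That of the 8 Dnmt3a genes had a median of 0.79 and ran from -2.57 to 3.06. An unadjusted interaction p below 0.05 was found in 1 of the 26 and in 3 of the 8. The genes were selected for a change in both measurements, so this is a description of them with no test. The genes named next from this set were chosen after their values were seen.

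Klf10, which encodes a zinc-finger factor induced by TGF-beta, was at 111 and 126 CPM in DKO, 12.4 and 12.1 in Dnmt3a KO, 78.6 and 94.7 in LCD KO, and 8.16 and 7.82 in WT. The groups without the domain were far above those with it whether or not Dnmt3a was lost. It rose by 3.27 ± 0.29 in DKO relative to Dnmt3a KO (adjusted p = 4.25e-06) and by 3.44 ± 0.30 in LCD KO relative to WT (adjusted p = 3.67e-06), and the interaction of -0.17 had a 95% interval of -1.0 to 0.67. Zhx1, a zinc-finger and homeobox gene, was at 120 and 76.1 CPM in DKO, 16.5 and 13.3 in Dnmt3a KO, 75 and 56.9 in LCD KO, and 7.45 and 7.22 in WT. It rose by 2.73 ± 0.31 in DKO relative to Dnmt3a KO (adjusted p = 9.22e-05) and by 3.16 ± 0.34 in LCD KO relative to WT (adjusted p = 5.48e-05), with an interaction of -0.43 (95% interval -1.37 to 0.50).

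Lrrc8d, which encodes a subunit of volume-regulated anion channels, was at 5.08 and 9.13 CPM in DKO, 28.9 and 40.0 in Dnmt3a KO, 4.25 and 8.05 in LCD KO, and 38 and 35.8 in WT, with an interaction of 0.23 (95% interval -0.90 to 1.37). Fgf9, a growth factor gene, was at 6.77 and 7.99 CPM in DKO, 25.6 and 24.7 in Dnmt3a KO, 6.37 and 6.71 in LCD KO, and 21.6 and 25 in WT, with an interaction of 0.05 (95% interval -0.99 to 1.10). In Lrrc8d and Fgf9, every library without the domain was below every library with it.

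Of the 4 genes in which both single losses were called against WT, Mtfr2 was the one with a called interaction. Gpat3, which encodes an acyltransferase of glycerolipid synthesis, was at 37.5 and 57.8 CPM in DKO, 45.0 and 49.0 in Dnmt3a KO, 8.85 and 11.5 in LCD KO, and 1.77 and 1.80 in WT. Its DKO level overlapped that of Dnmt3a KO, and the sum of the single changes was 7.18 against an observed 4.70 ± 0.42. The interaction of -2.48 ± 0.55 did not pass the test (adjusted p = 0.141). The RIKEN gene 7420700N18Rik had an interaction of 3.06 ± 0.66 (adjusted p = 0.121). In both genes the change between LCD KO and WT had the opposite sign in batches 1 and 2. It was -0.80 ± 0.83 there for Gpat3 (adjusted p = 0.532), against 2.49 in batch 3, and 0.88 ± 0.24 for 7420700N18Rik (adjusted p = 0.0133), against -2.74 in batch 3. In the fit of 22 libraries the interaction was -0.03 for Gpat3 and 0.10 for 7420700N18Rik. The predicted gene Gm19757 rose in both single losses, by 1.55 in LCD KO and 1.65 in Dnmt3a KO, with 2.33 in DKO and an interaction of -0.87 (adjusted p = 1).

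Genes that changed with Dnmt3a in both measurements included some that were near 0 in both groups with Dnmt3a. The RIKEN gene 2610037D02Rik was at 11.3 and 20.2 CPM in DKO, 8.67 and 12.4 in Dnmt3a KO, 0 and 0.537 in LCD KO, and 0 and 0 in WT. The RIKEN gene 5430427O19Rik was at 16.9 and 21.3 CPM in DKO, 9.90 and 17.9 in Dnmt3a KO, 0 and 0 in LCD KO, and 0 and 0.301 in WT. In both genes every library without Dnmt3a was above every library with it, and with groups at 0 their fitted interactions depend on the small count added in fitting. Top3a, which encodes a DNA topoisomerase, was at 68.2 and 77.6 CPM in DKO, 78.8 and 116 in Dnmt3a KO, 18.4 and 22.3 in LCD KO, and 22.3 and 46.6 in WT. It rose by 1.83 ± 0.33 in DKO relative to LCD KO (adjusted p = 0.0129) and by 1.5 ± 0.32 in Dnmt3a KO relative to WT (adjusted p = 0.0341), with an interaction of 0.34 (95% interval -0.61 to 1.28).

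Tuba3b, an alpha-tubulin gene with near-identical copies whose reads may be shared, was on a list of germline genes sensitive to methylation. It was at 3.38 and 5.33 CPM in DKO, 15.7 and 7.03 in Dnmt3a KO, 57.3 and 76.2 in LCD KO, and 73.8 and 98.6 in WT. It fell by 3.96 ± 0.40 in DKO relative to LCD KO (adjusted p = 1.79e-05) and by 2.98 ± 0.36 in Dnmt3a KO relative to WT (adjusted p = 0.000260). Its interaction was -0.98 ± 0.54 (adjusted p = 1).

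Genes called in 1 measurement of a loss were then read in the other, which shares no library with it. With the genes Tet3 and Dnmt3a themselves set aside, the 67 genes called between LCD KO and WT had the same sign in 59 between DKO and Dnmt3a KO, with a median size of 1.14 there, against 1.78 where they were chosen. The 140 genes called between DKO and Dnmt3a KO had the same sign in 121 between LCD KO and WT, with a median size of 1.09 against 1.71. The 50 genes called between Dnmt3a KO and WT had the same sign in 41 between DKO and LCD KO, with a median size of 0.61 against 2.41. The 27 genes called between DKO and LCD KO had the same sign in 20 between Dnmt3a KO and WT, with a median size of 0.81 against 2.57. Over all 10924 genes the sign was the same in 66.8% for the Tet3 domain and 60.2% for Dnmt3a. Choosing genes by their change inflates it where they were chosen, so each of these pairs of sizes shrinks by selection too. Whether the changes shrink more for 1 loss than for the other was not tested.

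Genes that differ between LCD KO and WT were therefore taken from other libraries. That choice too is between LCD KO and WT, so it can include genes that follow Cre or the line. In batches 1 and 2, 2389 of 9993 genes (23.9%) were called between LCD KO and WT, 1106 of them higher (11.1%). Of these, 1101 higher and 1265 lower genes were measured in the 2x2. The higher genes had a median log2 change of 0.40 between DKO and Dnmt3a KO and 0.39 between LCD KO and WT. The lower genes had -0.26 between DKO and Dnmt3a KO and -0.31 between LCD KO and WT. Over all tested genes both medians were within 0.01 of 0. On the log2 CPM scale, the median interaction was -0.02 in the higher and 0.03 in the lower genes, against 0.01 over all. The interaction was called in 2 of the higher genes (0.182%) and 1 of the lower genes (0.0791%), close to the 0.101% of all genes.

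A score per library, the mean log2 CPM of the higher genes minus that of the lower genes relative to WT, was 0.691 and 1.06 in DKO, 0.134 and 0.00195 in Dnmt3a KO, 0.947 and 0.712 in LCD KO, and 0.155 and -0.155 in WT. DKO and LCD KO overlapped, as did Dnmt3a KO and WT, and the pairs of groups with and without the domain did not. The score was 0.806 higher in DKO than in Dnmt3a KO, and 0.830 higher in LCD KO than in WT, where Cre also differs. The difference between these was -0.0239, and the SD between libraries of a group was 0.194. That difference carries the error of 4 group means, so its own spread is wider than this SD. Whether the score changes by the same amount with and without Dnmt3a was not tested. The genes of the score were chosen for the change in libraries outside the 2x2. No test was run on the scores, with 2 libraries a group. Against the changes in batches 1 and 2 over 9861 genes, the slope was 0.503 for DKO minus Dnmt3a KO and 0.524 for LCD KO minus WT. Their ratio was 0.961, and it lay between 0.764 and 1.16 when each library was left out in turn.

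**Figure D4:**
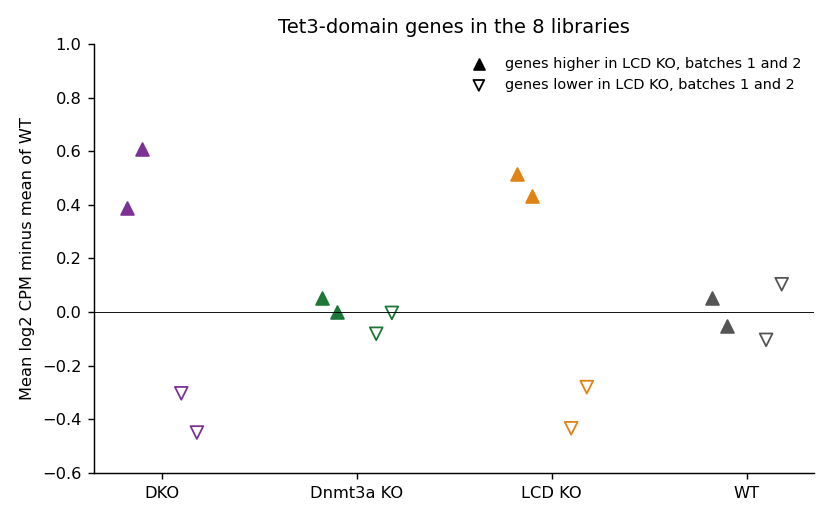
Mean log2 CPM minus the mean of WT in each of the 8 libraries, over genes that were higher (filled triangles, 1101 genes) or lower (open triangles, 1265 genes) in LCD KO in batches 1 and 2. The DKO and LCD KO libraries lie away from 0 in both sets, and the Dnmt3a KO and WT libraries lie near 0.

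How well the sum of the single effects predicts the double was measured as the root mean square (RMS) of the log2 difference between DKO and 4 predictors, over the 10924 genes. The RMS was 0.571 for the sum, 0.577 for Dnmt3a KO, 0.475 for LCD KO and 0.585 for WT. The sum carries the error of 3 group means, and replicate spread alone gave 0.600 for it, against 0.446 for Dnmt3a KO, 0.417 for LCD KO and 0.423 for WT. The departure of DKO from additivity was thus no larger over all genes than the replicate spread, with a ratio of 0.952, although the ratio was 1.04 without Dnmt3a KO 2. Over the same genes DKO differed from each other group by more than that spread. By distance alone, LCD KO was nearer to DKO than the sum was. Over the 2303 genes that averaged at least 100 CPM, the RMS was 0.294 for the sum against 0.444 from replicates, and DKO differed from Dnmt3a KO by 0.341 against 0.343, from LCD KO by 0.250 against 0.287 and from WT by 0.302 against 0.295, all near or below the replicate spread. DKO was over 2-fold from the sum in 7.61% of genes, from Dnmt3a KO in 8.0%, from LCD KO in 4.22% and from WT in 8.06%.

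**Figure D5:**
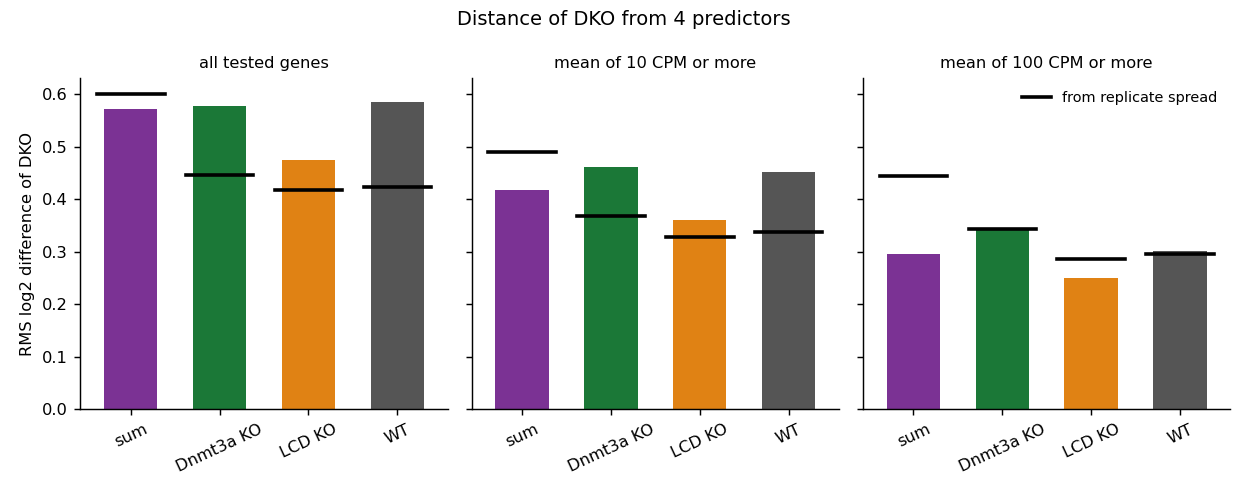
RMS log2 difference of DKO from the sum of the single effects, Dnmt3a KO, LCD KO and WT (bars) and the RMS that replicate spread alone gives (black lines), for all tested genes and for genes averaging at least 10 or 100 CPM. Over all genes the bar of the sum (0.571) is below its line (0.600), and the bar of WT (0.585) is above its line (0.423).

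With 2 libraries a group, additivity could be bounded for a minority of genes. The 95% interval of the interaction lay within 1 log2 unit of 0 in 2539 of 10924 genes (23.2%), in 2534 of 7899 genes averaging at least 10 CPM (32.1%) and in 1398 of 2303 with at least 100 CPM (60.7%). The median distance from the estimate to an end of the interval was 0.970, 0.860 and 0.733 log2 units over these 3 sets. Of 115 genes with either single loss called against WT, 9 had a called interaction and 106 did not, against 0.101% of all genes called, and 52 had an unadjusted interaction p below 0.05, against 2.98% of all genes. The single losses enter the interaction, so these shares are in part built in. The interval lay within 1 log2 unit of 0 in 10 of the 115. A missed threshold is therefore no sign of additivity in most of these genes.

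Among 15 gene lists of oocyte and DNA methylation biology and cell types, 2 had a member with a called interaction. They were Mtfr2, 1 of 21 measured genes of mitochondrial fission and fusion, and Pxdn, 1 of 15 measured genes of basement membrane and matrix, and both lists were drawn up around those genes. With 0.101% of all genes called, a list of this size holds no called gene in most cases, so a count of 0 says nothing about a list. Of the other lists with a measured member, none had a called interaction: DNA methylation machinery (22 genes), imprinted genes with maternal methylation (20), germline genes sensitive to methylation (30), meiotic maturation and spindle (44), maternal mRNA decay (33), oocyte and maternal-effect genes (37), cell junction and adhesion (18), p53 and DNA damage (24), stress and chaperone genes (30), 2-cell genome activation (9), granulosa and cumulus markers (6) and theca and stroma markers (1). None of the 13 blood and immune markers passed the filter. The median fitted interaction was between -0.12 and 0.19 in the lists with 6 or more measured genes, against -0.00157 over all genes.

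Members of these lists that changed with the domain did so with and without Dnmt3a in several cases. Sesn1, a p53 target of the sestrin family, was at 17.2 and 12.6 CPM in DKO, 2.48 and 4.12 in Dnmt3a KO, 14.5 and 13.2 in LCD KO, and 2.84 and 1.80 in WT. It rose by 2.12 ± 0.47 in DKO relative to Dnmt3a KO (adjusted p = 0.0265) and by 2.57 ± 0.50 in LCD KO relative to WT (adjusted p = 0.0182). Hspb1, a small heat shock protein gene, was at 22 and 39.2 CPM in DKO, 6.60 and 4.12 in Dnmt3a KO, 22.7 and 28.2 in LCD KO, and 8.87 and 5.71 in WT. Jup, which encodes plakoglobin of adherens junctions and desmosomes, was at 87.4 and 45.6 CPM in DKO, 21.5 and 27.2 in Dnmt3a KO, 99.1 and 81.3 in LCD KO, and 28.7 and 28.6 in WT. In Sesn1, Hspb1 and Jup, the libraries without the domain were all above those with it. Their interactions were -0.45, 0.73 and -0.20 (adjusted p = 1 for each).

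Trp53, the p53 gene, rose by 1.56 ± 0.37 in DKO relative to Dnmt3a KO (adjusted p = 0.0385) and differed by 0.69 ± 0.34 between LCD KO and WT (adjusted p = 0.485), and the difference between these changes was not called (interaction 0.87 ± 0.50, adjusted p = 1). Xbp1, which encodes a transcription factor of endoplasmic reticulum stress, was at 24.5 and 17.5 CPM in DKO, 4.95 and 4.61 in Dnmt3a KO, 10.3 and 8.59 in LCD KO, and 3.55 and 2.71 in WT. It rose by 2.75 ± 0.45 in DKO relative to WT (adjusted p = 0.00337), with an interaction of 0.56 ± 0.65 (adjusted p = 1). Oog1, an oocyte gene of the oogenesin family, fell by 1.08 ± 0.26 in DKO (adjusted p = 0.0409) and by 1.31 ± 0.26 in Dnmt3a KO (adjusted p = 0.0233), both relative to WT, and its interaction was 0.65 ± 0.37 (adjusted p = 1). None of the 20 measured imprinted genes of the list was called in any of the 6 comparisons, which called 0.101% to 1.39% of all genes. At such shares a list of this size holds no called gene in most cases, so this says nothing about the list. Inha was called between LCD KO and WT (5.89 ± 1.08, adjusted p = 0.0162), with its levels given above.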

How the data were processed

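RNA of 8 pools of 10 GV oocytes was compared, all of batch 3. The authors deposited raw counts by gene symbol, not normalized. The submitters' processing notes name Trim Galore 0.5.0, HISAT2 2.1.0 and featureCounts 1.6.4, with mm9. The gene annotation, strandedness and handling of multiply aligned reads are not given in the sources used here. Overlapping, antisense and near-identical genes are therefore uncertain. Of 24542 features, 92 spike-in sequences were left out, as were Mt1 and the Cre and GFP features, which follow Cre.

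The 4 groups were fitted together with the quasi-likelihood test of edgeR 4.0.16 in R 4.3.3 (TMM factors, filterByExpr by group, robust, 4 residual degrees of freedom), with Benjamini-Hochberg adjustment over all 10924 tested genes. Medians over gene sets and RMS values used log2 CPM with a prior count of 2. A group at 0 was read as 3 counts over its libraries, which covers counting error only. Every replicate pair differed beyond sampling noise (chi-square over its degrees of freedom 9.70 or more), so each library was counted. Script steps were tested on simulated data.

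Members and gene lists were chosen with earlier results of these data known. The genes named are Mtfr2, Tmem47, Pxdn, Tet3 and Dnmt3a, the 12 genes in each direction with the largest called interactions, filled by the smallest p, up to 3 of each list by p, and those said to be chosen otherwise. A gene that the rule names but the text does not is not reported here. Alternatives were RLE factors, DESeq2 1.42.0, no filter (at least 1 count in all), 10 or 22 libraries, a replicate block, the Cre features kept, other prior counts, a minimum of 10 CPM and each library left out in turn. Leaving out a library leaves its group with 1, which is taken to vary like the others. The numbers of Dnmt3a KO and DKO are shared in the labels, with no statement that they pair the pools.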

Additional observations from a re-analysis of the deposited data

Results flagged for a closer look

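In 11 genes the change with the loss of the Tet3 domain differed by a test of the difference itself between oocytes without Dnmt3a (DKO minus Dnmt3a KO) and with it (LCD KO minus WT). The log2 difference between these changes was 6.62 for Slc4a3, 4.20 for Hmgn3, 3.33 for B3gnt7, 2.82 for Myo10, 2.74 for Alyref2, 2.56 for Mtfr2, 2.1 for Ccdc28a and 1.93 for Rwdd2a. It was -2.32 for March11 and -5.35 for Defa29. The fitted value for Pxdn was 7.72, which depends on the prior count because Dnmt3a KO was at 0, and the bound given by the floor is at least 17.9-fold. Over 15 settings of the fit other than the one reported, Slc4a3, Hmgn3 and Myo10 were called in 14 each, Mtfr2 in 13, Pxdn in 12, Alyref2 in 11, Defa29 in 10, March11 in 8, B3gnt7 in 7, Ccdc28a in 5 and Rwdd2a in 4. Slc4a3, Hmgn3 and Myo10 were called with each of the 8 libraries left out, and lost the call in the fit of 22 libraries. In each of the 11 genes the direction was kept in all 15. All these settings draw on the DKO and Dnmt3a KO libraries that chose the genes. They are not independent of that choice, and the kept directions are in part built in.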

How the results depend on the processing

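No called interaction of a named gene changed direction under the alternatives run. The sign of single effects was compared gene by gene only with batches 1 and 2. There the Tet3 domain's sign was opposite for Myo10, Gpat3 and 7420700N18Rik, whose change between LCD KO and WT was called in batch 3. Slc4a3, Alyref2, Rwdd2a and March11, with a called interaction but that change uncalled in batch 3, also had the opposite sign. With no filter on low counts, 25 interactions were called, and the counts were 182 for LCD KO and WT, 291 for DKO and Dnmt3a KO, 104 for Dnmt3a KO and WT, 90 for DKO and LCD KO and 290 for DKO and WT. Over 22 libraries with a batch term, 6 interactions were called, 3 of them shared with the 8-library fit, and the counts were 2161 for LCD KO and WT, 234 for DKO and Dnmt3a KO, 87 for Dnmt3a KO and WT and 440 for DKO and WT. That fit has 7 LCD KO and 6 WT libraries and 14 residual degrees of freedom. Leaving out each library in turn gave 3 to 12 interactions, 13 to 82 calls for LCD KO and WT, 22 to 186 for DKO and Dnmt3a KO, 10 to 59 for Dnmt3a KO and WT, 18 to 37 for DKO and LCD KO and 41 to 182 for DKO and WT. The median interaction was then -0.10 to 0.09 in the higher and -0.0434 to 0.149 in the lower Tet3-domain genes, the slope ratio 0.764 to 1.16, and the RMS of the sum over the RMS from replicates 0.913 to 1.04. That last ratio was 0.952 over all genes and 0.851 with a minimum of 10 CPM. For named genes, 53 values lost a call, 27 gained one and 865 stayed on their side of the threshold; the cause was not tested.

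A replicate block was fitted although the shared numbers of Dnmt3a KO and DKO do not pair the pools (r = -0.00324 between their replicate differences). With 1 residual degree of freedom it called 13 interactions, 8 of them shared, and 49 genes between DKO and LCD KO, 14 of them shared. Of its other calls, 19 were shared for DKO and WT, 16 for LCD KO and WT, 10 for Dnmt3a KO and WT and 132 for DKO and Dnmt3a KO. With 2 libraries a group the intervals stay wide also for abundant genes, with a median half-width of 0.733 log2 units at 100 CPM or more.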
